A study of Mus musculus with 6 samples.

Results

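The enzymes that add or remove methyl groups on histone lysines, and those that remove acetyl groups from them, were followed in embryonic mouse submandibular glands (eSMGs) cultured with or without AMD3100. Members were chosen by a rule on gene symbols, with earlier results of these data known. They were the genes of the Kdm, Kmt, Setd, Hdac, Sirt and Prdm families, together with Ehmt1, Ehmt2, Suv39h1, Suv39h2, Nsd1, Dot1l and Ash1l. This rule found 71 genes of the 23260 in the count tables. The glands came from ICR mouse embryos at E14, with no genetic change named in the labels, and were held in culture for 6 h as control or with 50 µM AMD3100, a small-molecule antagonist of the chemokine receptor CXCR4. There were 3 control and 3 AMD3100-treated libraries, each from a tube that held up to 10 glands, so that every value is that of a pool. The libraries were made from the 3′ ends of mRNA and read as single reads of 50 bases.

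Histone lysine methyltransferases carry a SET domain, with DOT1L as the known exception, and the lysine they modify decides much of the outcome. Methylation of H3K4 marks promoters and enhancers that are in use, methylation of H3K36 and H3K79 follows transcribed gene bodies, and methylation of H3K9 is a mark of silent chromatin. The marks are removed by flavin-dependent demethylases of the KDM1 type and by the larger JmjC family, which needs iron and 2-oxoglutarate. Histone deacetylases of classes I, II and IV need zinc, whereas the sirtuins need NAD+, and some sirtuins act in mitochondria rather than on histones. Many of these enzymes are known as partners of transcription factors in cells that leave a progenitor state.

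The windows around the transcription start are shown for the 3 members whose control and AMD3100-treated libraries did not overlap. Each holds 250 bases before and 50 bases after the start, from RefSeq on GRCm38, the assembly also called mm10. The Prdm8 window lies at chr5:98180619-98180918 on the plus strand, the first of several Setd8 windows at chr5:124439680-124439979 on the plus strand, and the Sirt7 window at chr11:120624965-120625264 on the minus strand. Capitals mark every CG dinucleotide and the letters of a GC box, GGGCGG on either strand, and the CG inside a GC box belongs to both.
Prdm8: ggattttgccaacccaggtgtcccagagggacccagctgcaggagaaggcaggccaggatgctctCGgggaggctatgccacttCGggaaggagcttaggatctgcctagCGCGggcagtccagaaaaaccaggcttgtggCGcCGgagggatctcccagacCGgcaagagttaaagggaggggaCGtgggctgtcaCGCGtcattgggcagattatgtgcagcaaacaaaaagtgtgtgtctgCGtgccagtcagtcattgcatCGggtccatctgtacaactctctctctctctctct
Setd8: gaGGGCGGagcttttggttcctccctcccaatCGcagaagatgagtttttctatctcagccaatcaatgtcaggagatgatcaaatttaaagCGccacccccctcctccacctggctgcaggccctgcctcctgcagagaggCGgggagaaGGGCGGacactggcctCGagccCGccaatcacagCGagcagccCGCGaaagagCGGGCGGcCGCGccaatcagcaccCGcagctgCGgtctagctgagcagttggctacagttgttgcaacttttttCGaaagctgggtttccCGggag
Sirt7: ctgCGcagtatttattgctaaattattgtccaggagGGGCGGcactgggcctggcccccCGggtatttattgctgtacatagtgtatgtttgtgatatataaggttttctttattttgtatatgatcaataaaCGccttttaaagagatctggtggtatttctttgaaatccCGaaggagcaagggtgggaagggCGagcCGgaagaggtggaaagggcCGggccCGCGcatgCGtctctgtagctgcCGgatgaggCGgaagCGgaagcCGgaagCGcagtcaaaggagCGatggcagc

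The Prdm8 window held 12 CG dinucleotides and no GC box, the Setd8 window 18 and the Sirt7 window 17. Windows were found for 54 of the 71 members, 75 windows in all. Their median was 23 CG dinucleotides, against 7 over all 32851 windows of the table. A window was called CpG-rich when its GC content was over 50% and its CG count over 0.6 of that given by its base composition, and 74.7% of the members' windows were so, against 33.3% of all windows. The GC box stood in 64% of the members' windows and in 35.7% of all windows, with GGGCGG counted on both strands. The TATA box, searched as TATAAA on both strands, stood in 5.33% and 13.6%, and the CCAAT box, searched as CCAAT on both strands, in 41.3% and 37.4%. These are matches of letters in a window of 300 bases. The plot of CpG content shows how few of the members lay in the CpG-poor class that held the most windows of the table.

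**Figure D1:**
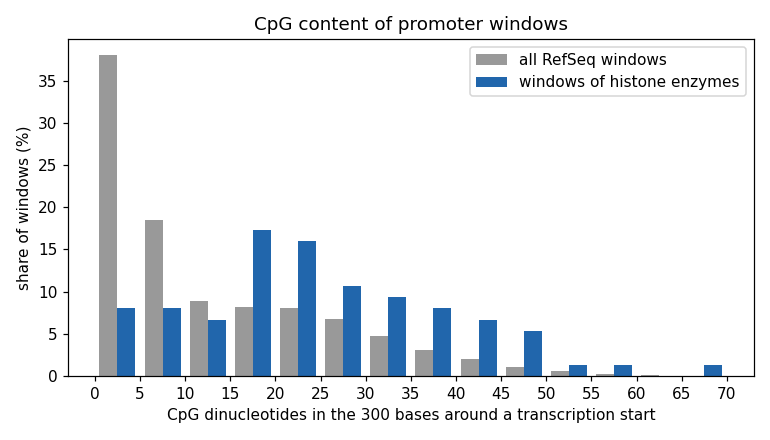
Share of promoter windows (%) by the number of CpG dinucleotides in the 300 bases around a transcription start, for all RefSeq windows (grey, 32851) and for those of the histone enzymes (blue, 75). The median was 23 in the enzymes and 7 in all windows.

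Library totals ran from 9051595 counts in AMD3100 replicate 3 to 14393031 in AMD3100 replicate 1. The smallest level taken as measured was 3 counts, which came to 0.208 CPM in the deepest library and 0.331 CPM in the shallowest, where CPM is the count scaled to the library's total. Members took 0.294%, 0.317% and 0.232% of the counts in control replicates 1, 2 and 3, and 0.369%, 0.289% and 0.232% in AMD3100 replicates 1, 2 and 3. The share was lowest in both replicate 3 libraries, at 0.232% in control (95% Wilson interval 0.229 to 0.235) and 0.232% in AMD3100 (0.229 to 0.235). Intervals and floors cover counting error only, since PCR copies of a molecule are counted like separate molecules. The ribosomal RNA precursor Rn45s took between 16.2% and 32.5% of a library's counts and sat within the totals. Of the 71 members, 61 had a count in every library, and Prdm13 and Prdm14 had none in any. The filter on low counts left 65 members to be tested, and Kdm8, Prdm6, Prdm12, Prdm13, Prdm14 and Sirt4 were below it.

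Both replicate 3 libraries stood apart from the other 4 libraries. The first principal component of the tested genes carried 38.2% of the variance and set control replicate 3 and AMD3100 replicate 3 on one side, with the other 4 libraries on the other. Marker genes of other cell types moved with this split. The summed level of 12 skeletal muscle genes was 360, 364 and 1927 CPM in control replicates 1, 2 and 3 and 245, 199 and 2657 CPM in AMD3100 replicates 1, 2 and 3. Its most abundant gene was Myog, the myogenic regulator. The summed level of 14 mesenchymal genes, led by Col3a1, was 4657, 4606 and 2405 CPM in control and 4636, 4615 and 2035 CPM in AMD3100. Without the collagen genes Col1a1, Col1a2 and Col3a1 the other 11 summed to 1368, 1327 and 1281 CPM in control and 1340, 1369 and 996 CPM in AMD3100, and 5 of the 13 mesenchymal genes tested were low in both replicate 3 libraries. The glands' own epithelium was present in all libraries, but 8 of its 14 genes were low in both replicate 3 libraries. Sox10, for example, stood at 89.5, 114 and 22.1 CPM in control and at 110, 91.9 and 16.3 CPM in AMD3100. Krt15, the most abundant of the 14, stood at 1042, 1012 and 888 CPM in control and at 1367, 1016 and 2472 CPM in AMD3100, and the other 13 summed to 1337, 1369 and 685 CPM in control and to 1460, 1487 and 1117 CPM in AMD3100. The part of these cell types in the levels given here was not tested. In pools of whole glands, fewer cells of a type and less RNA per cell cannot be told apart.

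AMD3100 replicate 3 also differed in its sex-linked transcripts. The Y-linked demethylase gene Kdm5d stood at 1.66, 4.88 and 3.19 CPM in control replicates 1, 2 and 3 and at 2.88, 1.66 and 0 CPM in AMD3100 replicates 1, 2 and 3. Ddx3y, a Y-linked RNA helicase gene, stood at 36.5, 42.0 and 28.6 CPM in control and at 22.3, 39.4 and 0 CPM in AMD3100. Eif2s3y and Uty, also Y-linked, were at 0 counts in AMD3100 replicate 3 alone among the 6 libraries. Xist, which is made from the inactive X chromosome, was highest in that library, at 401 CPM, against 55.0 to 254 CPM in the other 5. In AMD3100 replicates 1 and 2 the level of Kdm5d was close to the control range. Over all libraries its log2 fold change was -1.08 (SE 1.33). With 1 library left out it ran from -1.94 without AMD3100 replicate 1 to -0.52 without AMD3100 replicate 3. Kdm5c, Kdm6a, Hdac6, Hdac8 and Suv39h1 are the X-linked members to which the same library contributes.

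**Figure D2:**
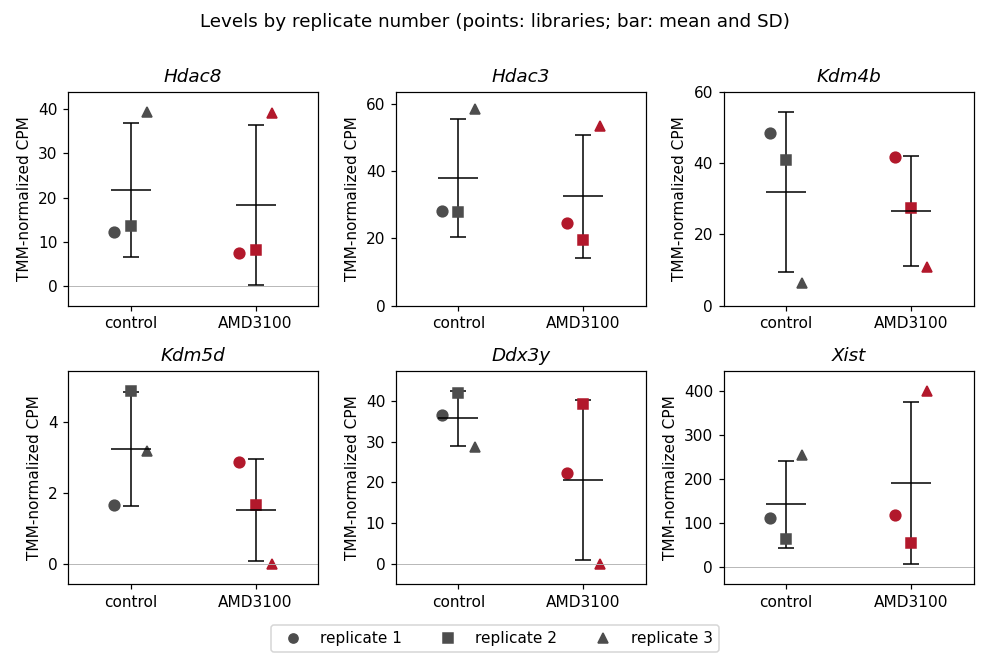
TMM-normalized CPM of 4 members, of the Y-linked gene Ddx3y and of Xist by group, with points for libraries, shapes for replicate numbers and bars for the mean and SD. Hdac8 and Hdac3 were highest and Kdm4b lowest in both replicate 3 libraries, while Kdm5d and Ddx3y were at 0 in AMD3100 replicate 3.

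AMD3100-treated and control eSMGs were compared with edgeR's quasi-likelihood test on all genes that passed the filter. CPM values were TMM-normalized, means carry their SD over 3 libraries, and a positive log2 fold change is a higher level with AMD3100. A gene was called when its fold change was over 1.5 and its unadjusted p-value under 0.05. By this rule 1.68% of all 13610 genes tested were called, 228 genes, of which 54 (0.397%) were higher and 174 (1.28%) lower. Among the members, 1 of 65 was called, which is 1.54%, and it was Prdm8. Prdm8 passed the filter only through its AMD3100 libraries, where it was high, so this call is given as a description and not as support for a difference. After Benjamini-Hochberg adjustment over all genes tested with edgeR, 0 genes and 0 members passed 0.05, and 228 genes and 1 member had an unadjusted p-value under 0.05. The labels do not say that the tubes came from separate litters or cultures, although the study's methods speak in general of independent experiments done 3 times. The p-values measure the spread between these libraries, part of which may be technical. These libraries also differed within groups in muscle and sex-linked transcripts, as given above.

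The members were spread evenly about no difference. The log2 fold change was above 0 in 31 members and below 0 in 34, with a median of -0.02, against 0.02 over all genes tested. The groups did not overlap in 3 members, Prdm8 and Sirt7 with higher values in AMD3100 and Setd8 with lower, which is 4.62% of the members tested beside 7.44% of all genes tested. By direction, the groups of all genes tested were apart with AMD3100 higher in 3.28% and lower in 4.17%. In contrast, both replicate 3 libraries lay above or below the other 4 in 36 members, or 55.4%, beside 44.2% of all genes tested. They were above in 13 members and below in 23, whereas over all genes tested they were above in 3146 and below in 2865. The heat map of members by library shows this split in the last column of each group.

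**Figure D3:**
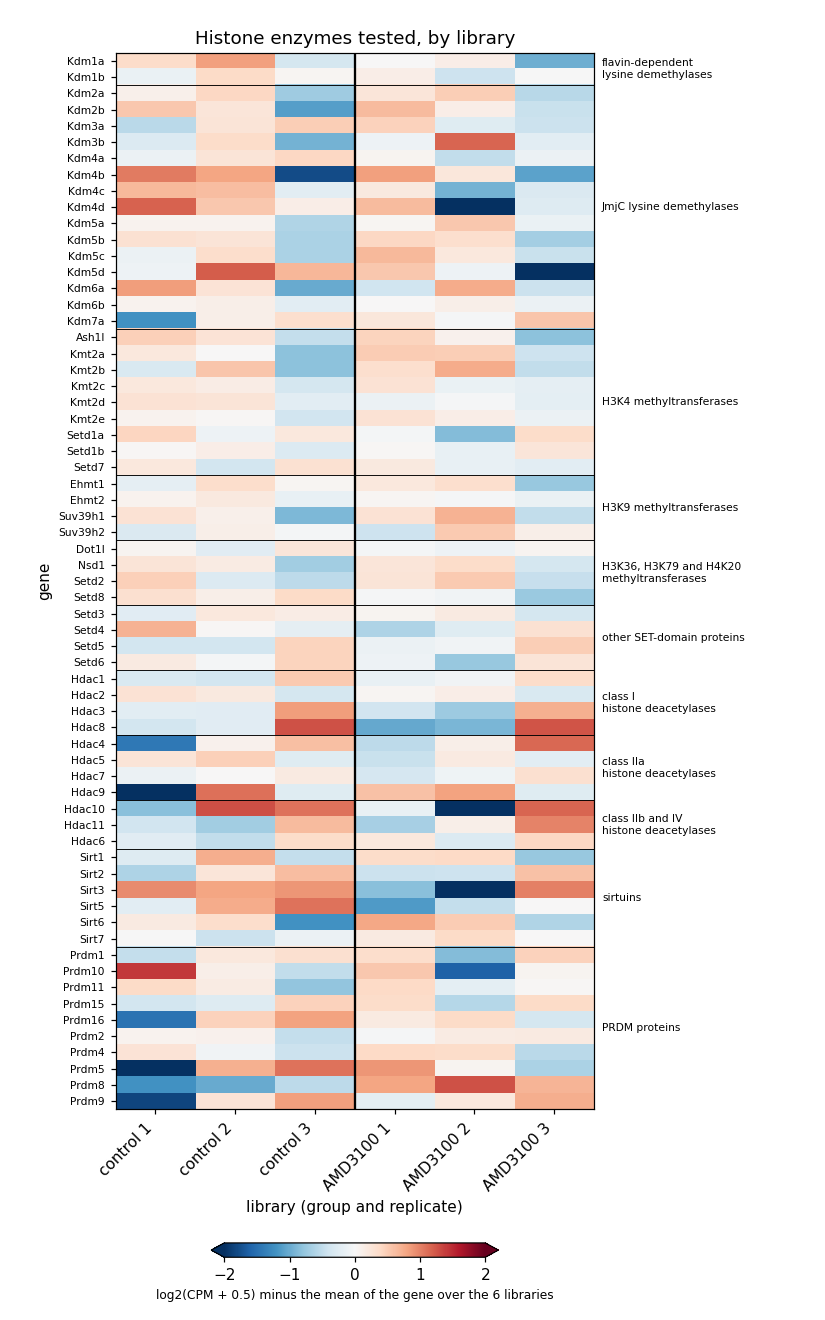
Level of the 65 members tested in each of the 6 libraries, as log2(CPM + 0.5) minus the mean of the gene over the libraries, by class of enzyme (blue below, red above the mean, with the colour scale ending at -2 and 2). Replicate 3 of both groups stood apart in 36 members, and control and AMD3100 (black line between them) in 3.

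The precision of the comparison was limited. The biological coefficient of variation, the spread between replicates beyond counting error, was 0.579. The 95% interval of the log2 fold change lay between -1 and 1, within a 2-fold difference, in 18 of the 65 members, or 27.7%, and in 21.3% of all genes tested. With the replicate number as a block in the model the coefficient was 0.446, and the interval lay within 2-fold in 38 members, or 58.5%, and in 44.2% of all genes tested. With the block, 4.39% of all genes tested were called, 598 genes, and 0 members. An unadjusted p-value under 0.05 with the block was found for 6.66% of all genes tested and for 3 members, Kmt2a, Setd8 and Kdm1a, all with a fold under 1.5. The lowest of their adjusted p-values in edgeR was 0.703, and 0.022% of all genes tested had an adjusted p-value under 0.05 with the block.

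**Figure D4:**
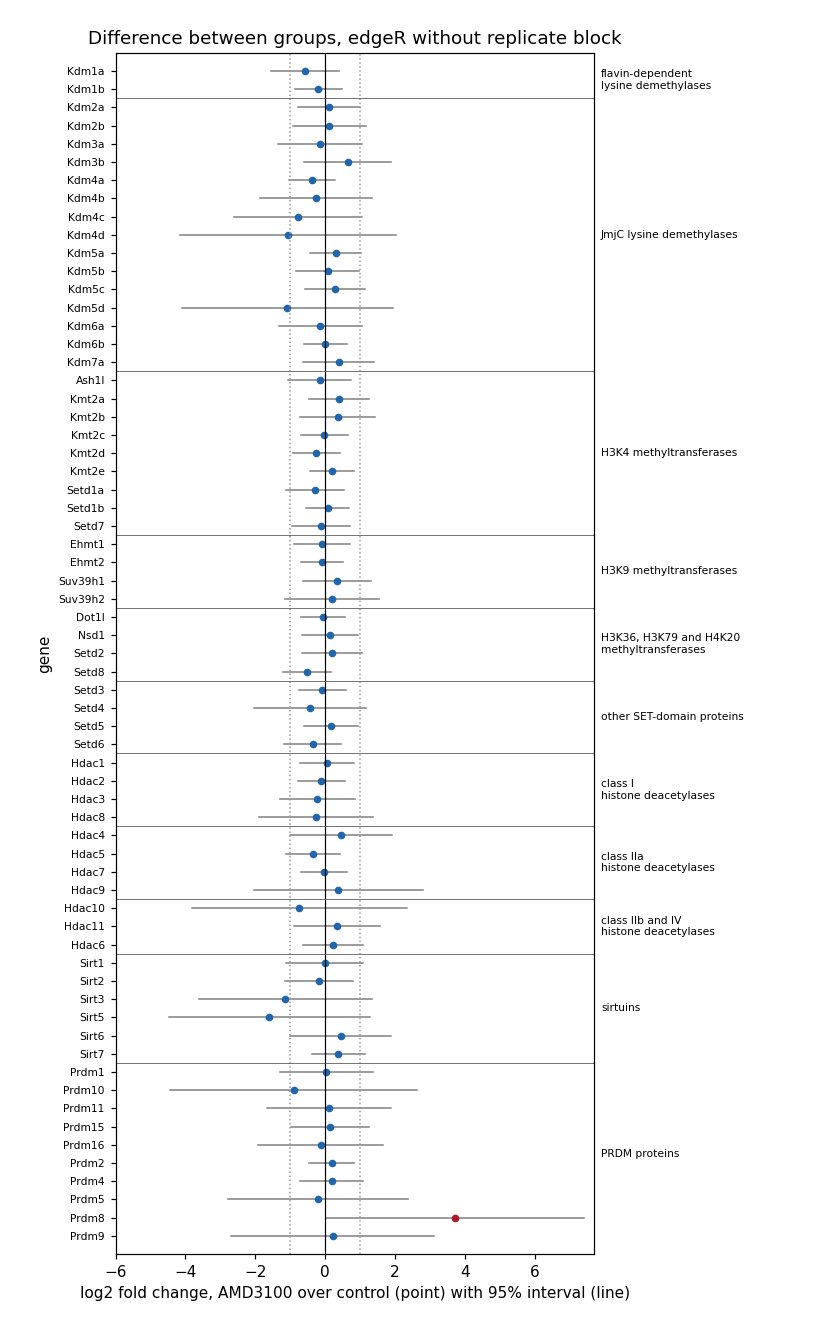
Log2 fold change of AMD3100-treated over control eSMGs (points) with its 95% interval (lines) for the 65 members tested, by class of enzyme, from edgeR without the replicate block. Dotted lines mark a 2-fold difference, and the red point is Prdm8, at 3.72, the only member with an unadjusted p under 0.05.

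Prdm8 belongs to the PRDM family, whose members pair a SET-related PR domain with zinc fingers, and it is best known as a repressor in developing neurons. The gene lies at chr5:98167203-98187454. It had 0, 1 and 3 counts in control replicates 1, 2 and 3 and 26, 25 and 11 counts in AMD3100 replicates 1, 2 and 3. The groups did not overlap, but every library held few reads of the gene, and control replicates 1 and 2 were under the floor of 3 counts. The means were 0.124 ± 0.156 CPM in control and 1.72 ± 0.513 CPM in AMD3100. Since the control counts were too low to pass the filter and the AMD3100 counts alone brought the gene into the test, the values of the fit are a description. The log2 fold change was 3.72 (SE 1.63, 95% interval 0.03 to 7.42), with an unadjusted p = 0.0486 and an adjusted p = 1 in edgeR's test. Over the summed libraries, 62 counts stood against 4, a ratio of 15.8 with a counting interval of 5.88 to 59.9. That interval leaves out the spread between libraries, so it too is a description and not support for a difference. With the replicate block the log2 fold change was 4.15 (95% interval -0.96 to 9.27) with an unadjusted p = 0.0996 in edgeR. Prdm8 was not called in any of the 6 fits with 1 library left out, where its log2 fold change ran from 3.16 to 5.17. The 12 markers of the ganglion's neurons and glia, led by Prph, summed to 1236, 1037 and 1220 CPM in control. In AMD3100 they summed to 1128, 954 and 1668 CPM, with overlap between the groups. The part of these cells in the level of Prdm8 was not tested.

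The other PRDM genes overlapped between the groups. Prdm2, which encodes a zinc-finger protein also known as RIZ, stood at 78.1, 78.96 and 53.2 CPM in control and at 73.4, 83.0 and 84.2 CPM in AMD3100. Its log2 fold change was 0.19 (SE 0.28). Prdm1, which encodes the repressor BLIMP1, had means of 6.57 ± 1.92 CPM in control and 6.75 ± 3.07 CPM in AMD3100. Prdm16, a regulator of brown fat and of stem cells, ranged from 1.14 to 7.48 CPM over the 6 libraries. Prdm9, the methyltransferase that places meiotic recombination sites, had 1, 28 and 32 counts in control and 23, 21 and 24 counts in AMD3100, and some of its simulated 3′ reads, 45.5%, were shared with another place in the genome. Prdm6 had counts only in the replicate 3 libraries, 14 in control and 9 in AMD3100. Prdm12 had 1 count in all. The 10 PRDM genes tested had a median log2 fold change of 0.12, with 7 above 0 and 3 below.

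Among the methyltransferases of H3K36, H3K79 and H4K20, Setd8 was lower in AMD3100. Setd8, also named Kmt5a, encodes the enzyme that places a single methyl group on H4K20 and is needed for the cell cycle. The gene lies at chr5:124439930-124462311. It stood at 68.5, 59.1 and 71.2 CPM in control replicates 1, 2 and 3 and at 53.8, 52.1 and 32.3 CPM in AMD3100 replicates 1, 2 and 3. The groups did not overlap, and they came closest between AMD3100 replicate 1 and control replicate 2. Its log2 fold change was -0.52 (SE 0.30), with an unadjusted p = 0.117 in edgeR without the block and an unadjusted p = 0.0342 with it. Of reads simulated from its 3′ end, 27.3% also matched elsewhere in the genome, so part of this count may belong to another place.

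The other 3 genes of this class overlapped between the groups. Nsd1, which encodes an H3K36 methyltransferase, stood at 186, 173 and 95.5 CPM in control and at 184, 199 and 122 CPM in AMD3100. Replicate 3 was the low library in both groups, and the log2 fold change was 0.15 (SE 0.35). Setd2, the enzyme of H3K36 trimethylation, had the same low library, at 56.3 CPM in control and 58.7 CPM in AMD3100, with 67.1 to 116 CPM in the other 4. Dot1l, the H3K79 methyltransferase gene, varied less, from 36.4 to 50.3 CPM over all 6 libraries, with a log2 fold change of -0.06 (SE 0.28).

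The genes grouped as H3K4 methyltransferases are those of the large MLL proteins, Kmt2a to Kmt2d, of the SETD1 proteins and of SETD7, with their relatives Kmt2e and Ash1l. Kmt2a stood at 99.1, 86.4 and 48.5 CPM in control and at 122, 121 and 64.1 CPM in AMD3100. Each AMD3100 library was above the control library of the same number, although the groups overlapped. The labels do not call equal numbers pairs, so this order, here and in other genes, is a description. The share of all genes with such an order is not given here. The log2 fold change was 0.39 (SE 0.38) without the block, and 0.39 (SE 0.15) with it, where edgeR gave an unadjusted p = 0.0275. With 1 library left out and no block it ran from 0.14 without control replicate 3 to 0.63 without AMD3100 replicate 3. Kmt2e, an MLL relative not known to methylate histones by itself, stood at 194, 188 and 142 CPM in control and at 226, 204 and 170 CPM in AMD3100. Here too each AMD3100 library was above the control library of its number. The log2 fold change of Kmt2e was 0.20 (SE 0.28), and its 3′ end overlaps Srpk2. Kmt2b had a log2 fold change of 0.36 (SE 0.47), Kmt2c of -0.02 (SE 0.30) and Kmt2d of -0.25 (SE 0.30). Ash1l encodes a SET-domain protein named for a fly homeotic regulator and known to act on H3K36. It had the groups' lowest values in replicate 3, at 56.2 CPM in control and 44.2 CPM in AMD3100. In contrast to Kmt2a and Kmt2e, each AMD3100 library was below the control library of the same number. The log2 fold change of Ash1l was -0.15 (SE 0.40). Of the 9 genes in this class, 4 were above 0 in log2 fold change and 5 below, and 6 had both replicate 3 libraries below the other 4. Kmt2e is among those above 0, Ash1l among those below, and both are among the 6.

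Of the 4 H3K9 methyltransferase genes, 0 were called, beside 1.68% of all genes tested, and the groups did not overlap in 0, beside 7.44%, so with so few genes these counts are near the background. Ehmt2, which encodes G9a, stood at 96.9, 106 and 83.4 CPM in control and at 95.2, 90.9 and 84.6 CPM in AMD3100. These ranges overlapped, and the log2 fold change was -0.08 (SE 0.26, 95% interval -0.68 to 0.52). Ehmt1, which encodes the partner GLP, had a log2 fold change of -0.09 (SE 0.35). Suv39h1, an X-linked gene for a methyltransferase of heterochromatin, stood at 35.2, 30.9 and 15.3 CPM in control and at 35.4, 46.9 and 20.4 CPM in AMD3100. Replicate 3 was low in both groups and each AMD3100 library was above the control library of its number, with a log2 fold change of 0.34 (SE 0.43, 95% interval -0.64 to 1.31). Suv39h2, its relative, had a log2 fold change of 0.20 (SE 0.59, 95% interval -1.13 to 1.54), from counts of 45 to 81, and its 3′ end overlaps Dclre1c.

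The other SET-domain genes, Setd3 to Setd6, include enzymes whose known substrates are not histones. Setd5 stood at 119, 120 and 210 CPM in control and at 142, 147 and 219 CPM in AMD3100. Replicate 3 was high in both groups, each AMD3100 library was above the control library of its number, and the log2 fold change was 0.18 (SE 0.34). Setd4 stood at 6.48, 3.86 and 3.29 CPM in control and at 2.30, 3.13 and 4.79 CPM in AMD3100. The groups overlapped, with a log2 fold change of -0.42 (SE 0.71). For Setd3, which encodes the actin histidine methyltransferase, 72.7% of simulated 3′ reads were shared with another place, and its log2 fold change was -0.08 (SE 0.29).

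Both flavin-dependent demethylase genes had lower means in AMD3100. Kdm1a encodes LSD1, which removes methyl groups from H3K4 within the CoREST complex. It stood at 32.2, 44.1 and 19.4 CPM in control and at 24.9, 27.2 and 12.4 CPM in AMD3100. Each AMD3100 library was below the control library of the same number, although the groups overlapped. The log2 fold change was -0.57 (SE 0.43) without the block, and -0.57 (SE 0.24) with it, where edgeR gave an unadjusted p = 0.0391. With 1 library left out and no block it ran from -0.82 without control replicate 3 to -0.26 without control replicate 2. The 3′ end of Kdm1a overlaps Luzp1. Kdm1b, its relative, stood at 37.6, 54.3 and 42.4 CPM in control and at 45.5, 31.0 and 41.3 CPM in AMD3100, with a log2 fold change of -0.19 (SE 0.30), and its 3′ end overlaps Dek.

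Of the 16 JmjC demethylase genes, 15 were tested and 0 were called, beside 1.68% of all genes tested, a share near the background for so few genes. Their log2 fold changes ran from -1.08 in Kdm5d to 0.64 in Kdm3b, with a median of 0.01. The summed level of the 16 was 779, 839 and 514 CPM in control replicates 1, 2 and 3 and 845, 829 and 529 CPM in AMD3100 replicates 1, 2 and 3, so replicate 3 was low by about the same amount in both groups. Kdm5b, which encodes a demethylase of H3K4, followed this pattern, at 205, 199 and 107 CPM in control and at 223, 211 and 103 CPM in AMD3100. Its log2 fold change was 0.07 (SE 0.39). The H3K9 and H3K36 demethylase gene Kdm4b, named after its values were seen, showed a wide split, at 48.3, 40.9 and 6.38 CPM in control and at 41.7, 27.3 and 10.8 CPM in AMD3100. Kdm4a, its relative, also named after its values were seen, did not share it, with 89.7, 116 and 130 CPM in control and 101, 69.0 and 89.7 CPM in AMD3100.

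The remaining JmjC genes included those for the H3K27 demethylases. Kdm6a, the X-linked gene also called Utx and named after its values were seen, stood at 45.5, 30.6 and 12.4 CPM in control and at 19.1, 42.7 and 18.7 CPM in AMD3100, with a log2 fold change of -0.14 (SE 0.53). Kdm6b ranged from 34.8 to 44.0 CPM over the 6 libraries, with a log2 fold change of 0.01 (SE 0.27). Kdm3a and Kdm3b, for demethylases of H3K9, had log2 fold changes of -0.15 (SE 0.53) and 0.64 (SE 0.55). In Kdm3b the highest library was AMD3100 replicate 2, at 25.5 CPM, with 5.49 to 14.4 CPM in the other 5. Kdm2b, whose protein binds unmethylated CpG and is known to recruit a variant PRC1, had a log2 fold change of 0.13 (SE 0.46), but 90.9% of its simulated 3′ reads were shared with another place. Kdm4d had 55, 40 and 21 counts in control and 55, 0 and 12 counts in AMD3100, with 72.7% of simulated reads shared. Kdm8 had between 1 and 10 counts in each library.

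The class I deacetylases, HDAC1, 2, 3 and 8, are nuclear enzymes, of which the first 3 work within corepressor complexes. The replicate 3 libraries stood apart in all 4 of their genes. Hdac8, on the X chromosome, stood at 12.3, 13.6 and 39.3 CPM in control and at 7.60, 8.30 and 39.2 CPM in AMD3100. Replicate 3 was high in both groups and the other 4 libraries were ordered by group, with both AMD3100 libraries lower. Its log2 fold change was -0.25 (SE 0.72) over all libraries and -0.46 (SE 0.29) with the replicate block. Without AMD3100 replicate 3 it was -1.47 and past the thresholds, where 3.16% of all genes tested were called. Without control replicate 3 it was 0.51. Each of these fits kept only the other high replicate 3 library. With replicates 1 and 2 only, the log2 fold change of Hdac8 was -0.71 and not past the thresholds. Hdac3, named after its values were seen, followed the same order, at 28.1, 27.7 and 58.2 CPM in control and at 24.6, 19.4 and 53.4 CPM in AMD3100.

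The other class I genes differed from these. Hdac2 stood at 173, 161 and 111 CPM in control and at 145, 155 and 114 CPM in AMD3100, with replicate 3 low in both groups. Its log2 fold change was -0.10 (SE 0.30, 95% interval -0.78 to 0.57). Hdac1, named after its values were seen, was high in replicate 3, at 56.3, 53.4 and 100.3 CPM in control and at 62.8, 65.8 and 89.2 CPM in AMD3100, and 72.7% of its simulated 3′ reads were shared with another place. The summed level of the class was 270, 256 and 309 CPM in control and 240, 249 and 296 CPM in AMD3100.

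The class II enzymes include HDAC4, 5, 7 and 9, which bind MEF2 factors and are known from muscle, and HDAC6, a deacetylase of tubulin. Hdac4 stood at 3.50, 11 and 15.9 CPM in control and at 7.03, 11.2 and 23.5 CPM in AMD3100. Replicate 3 was highest in both groups, and the log2 fold change was 0.45 (SE 0.64). Hdac7 stood at 92.6, 101 and 114 CPM in control and at 79.5, 94.9 and 126 CPM in AMD3100, with a log2 fold change of -0.04 (SE 0.29). Its 3′ end overlaps Slc48a1. Hdac5 had a log2 fold change of -0.34 (SE 0.34) and Hdac9, with 3 to 84 counts, of 0.38 (SE 1.07). Hdac6 stood at 16.3, 13.4 and 24.7 CPM in control and at 22.2, 15.6 and 25.4 CPM in AMD3100, each AMD3100 library being above the control library of its number, with a log2 fold change of 0.22 (SE 0.38). Hdac10, for a polyamine deacetylase, stood at 1.14, 6.63 and 5.68 CPM in control and at 2.13, 0 and 6.02 CPM in AMD3100. It was thus unequal within both groups, with a log2 fold change of -0.73 (SE 1.36), which ran from -2.05 without AMD3100 replicate 3 to -0.14 without AMD3100 replicate 2. Hdac11, the class IV gene, was highest in both replicate 3 libraries, at 23.0 and 29.6 CPM, and its log2 fold change was 0.34 (SE 0.54).

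Of the 6 sirtuin genes tested, 0 were called, beside 1.68% of all genes tested, and the groups did not overlap in 1, Sirt7, beside 7.44% of all genes tested. Sirt7, which encodes a nucleolar sirtuin, was named after its values were seen and lies at chr11:120618371-120625014. It stood at 17.7, 13.04 and 16.4 CPM in control and at 20.2, 23.2 and 17.8 CPM in AMD3100. All values in AMD3100 were higher, by the least between control replicate 1 and AMD3100 replicate 3, with a log2 fold change of 0.38 (SE 0.33) and an unadjusted p = 0.284 in edgeR. Sirt2, a mainly cytoplasmic deacetylase gene, stood at 18.3, 33.4 and 43.6 CPM in control and at 20.9, 21.0 and 42.6 CPM in AMD3100. The groups overlapped, with a log2 fold change of -0.17 (SE 0.44). Sirt1 and Sirt6, for nuclear enzymes, also overlapped, with log2 fold changes of -0.01 (SE 0.49) and 0.45 (SE 0.63).

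The mitochondrial sirtuins, Sirt3, Sirt4 and Sirt5, are given together, a grouping made after the values were seen. All 3 had lower means in AMD3100 than in control, with large differences between libraries of the same group. Sirt5, which encodes a desuccinylase, stood at 0.875, 2.19 and 2.89 CPM in control and at 0.230, 0.645 and 1.10 CPM in AMD3100, from 4 to 30 counts a library. The groups overlapped only in control replicate 1, which lay below AMD3100 replicate 3, and each AMD3100 library was below the control library of its number. Its log2 fold change was -1.59 (SE 1.27), with an unadjusted p = 0.241 in edgeR. Sirt3, for the main mitochondrial deacetylase, had 84, 90 and 71 counts in control and 31, 1 and 63 counts in AMD3100. Control was narrow, at 6.997 ± 0.406 CPM, while AMD3100 replicate 3 stood with the controls and AMD3100 replicates 1 and 2 stood below. The log2 fold change was -1.14 (SE 1.09) over all libraries and -0.56, not past the thresholds, without AMD3100 replicate 2. Without AMD3100 replicate 3 it was -2.86 and past the thresholds, where 3.16% of all genes tested were called. AMD3100 then held 31 and 1 counts, so the gene could pass the filter only with the controls, and this call is a description. The 3′ end of Sirt3 overlaps Ric8a, and the counting setting for strand is not given in the sources used here, so reads of the pair may not be told apart. Sirt4, below the filter, had 5, 31 and 19 counts in control and 0, 0 and 5 counts in AMD3100.

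**Figure D5:**
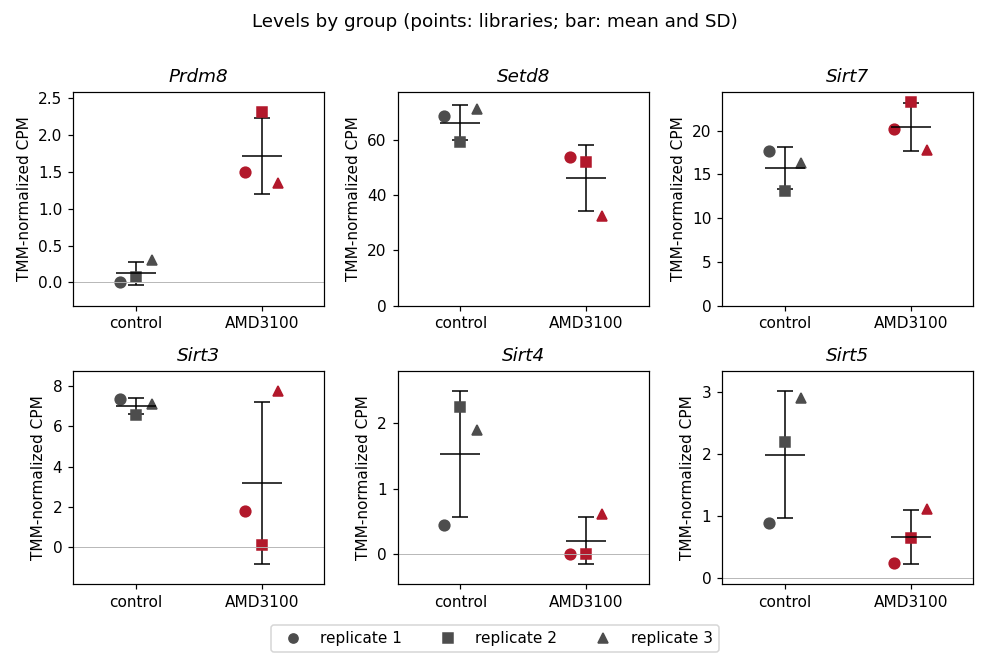
TMM-normalized CPM by group of the 3 members whose groups did not overlap (Prdm8, Setd8, Sirt7) and of the mitochondrial sirtuins Sirt3, Sirt4 and Sirt5, with points for libraries, shapes for replicate numbers and bars for the mean and SD. Prdm8 lay between 0 and 0.299 CPM in control and between 1.35 and 2.30 CPM in AMD3100, and in Sirt3 only AMD3100 replicates 1 and 2 were below the controls.

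Genes that work beside the members were taken from lists of partners and relatives. The 11 shared subunits of the COMPASS complexes, which hold the H3K4 methyltransferases, gave 1 call, in Wdr5, beside 1.68% of all genes tested. Wdr5, the scaffold of these complexes, stood at 56.4, 56.2 and 78.2 CPM in control and at 36.7, 25.5 and 42.7 CPM in AMD3100. The AMD3100 libraries were all lower, and the gene fell by 0.86 on the log2 scale (SE 0.31), with an unadjusted p = 0.0231 and an adjusted p = 1 in edgeR. Dpy30, another shared subunit, stood at 60.6, 43.9 and 22.3 CPM in control and at 28.1, 31.5 and 14.4 CPM in AMD3100, each AMD3100 library being below the control library of its number, and was called with the replicate block but not without it. The groups did not overlap in 2 of the 11, or 18.2%, beside 7.44% of all genes tested. These were Wdr5 and Paxip1, both lower in AMD3100, and Paxip1, with a log2 fold change of -0.47 (SE 0.35), was not called. The median log2 fold change of the 11 was -0.08. Wdr5 was not called without AMD3100 replicate 1, without AMD3100 replicate 2 or without control replicate 3, where its log2 fold change was -0.90, -0.67 and -0.68.

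The subunits of the SIN3, NuRD, CoREST and NCoR complexes, which carry the class I deacetylases, numbered 30, of which 29 were tested and 2 called, beside 1.68% of all genes tested. Mta1, a NuRD subunit, stood at 89.7, 113 and 82.1 CPM in control and at 65.3, 59.5 and 43.2 CPM in AMD3100. It fell by 0.76 on the log2 scale (SE 0.30), with an unadjusted p = 0.0297 and an adjusted p = 1 in edgeR. Gps2, an NCoR subunit whose 3′ end overlaps Eif5a, stood at 38.7, 46.5 and 47.3 CPM in control and at 64.2, 81.9 and 60.2 CPM in AMD3100. It rose by 0.64 on the log2 scale (SE 0.28), with an unadjusted p = 0.0462 and an adjusted p = 1 in edgeR. With 1 library left out, Mta1 was called in 2 of the 6 fits, with log2 fold changes from -0.89 to -0.62, and Gps2 in 0, with log2 fold changes from 0.50 to 0.71. Gps2 was also not called with upper quartile or quantile normalization (0.63 in both) or with no filter (0.64). The groups did not overlap in 7 of the 29, or 24.1%, with 6 higher in AMD3100 (Brms1, Arid4a, Arid4b, Chd4, Mbd3 and Gps2) and Mta1 lower, beside 7.44% of all genes tested. Arid4b, a SIN3 subunit, had 145 ± 21.0 CPM in control and 182 ± 1.65 CPM in AMD3100, and Brms1, from the same complex, had 1.48 ± 0.907 and 4.98 ± 0.494 CPM. Their log2 fold changes were 0.32 (SE 0.27) and 1.75 (SE 0.87), and neither was called with edgeR. DESeq2 gave Brms1 a log2 fold change of 1.76 with an unadjusted p = 0.0357, past the thresholds, where 2.39% of all genes tested were called. Brms1 had 24, 6 and 19 counts in control and 93, 56 and 36 counts in AMD3100. The control libraries alone would not have brought it past the filter, so its place among the 6 and this call are a description.

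The remaining lists gave 0 calls. In the 14 acetyltransferase genes, which act against the deacetylases, the log2 fold change was above 0 in 11 and below in 3, from -0.63 in Hat1 to 0.65 in Ncoa2, with a median of 0.19 beside 0.02 over all genes tested. Crebbp, a coactivator gene, stood at 154, 121 and 54.5 CPM in control and at 188, 156 and 96.8 CPM in AMD3100. Each AMD3100 library of Crebbp was above the control library of its number, but the groups overlapped. In the 13 other methyltransferase genes, 12 tested, the lowest p-values were those of Smyd2, with a log2 fold change of 0.63 (SE 0.41), and Suv420h1, with 0.43 (SE 0.39). Setdb2, for an H3K9 methyltransferase, was below the filter and had 0, 0 and 3 counts in control and 15, 7 and 12 counts in AMD3100. In the 15 JmjC genes outside the rule, 14 tested, Phf2 had a log2 fold change of -0.32 (SE 0.29) and Tyw5 of 0.55 (SE 0.54). Crebbp, Setdb2, Dpy30, Paxip1, Arid4b, Brms1 and Sox10 were picked after their values were seen.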

How the data were processed

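The authors deposited, for each of 6 libraries of pooled E14 eSMGs, read counts per gene symbol, without normalization. Per the labels, the submitters' processing notes name Bowtie2, edgeR and the mm10 build, and versions, annotation and strand setting are not given in the sources used here. Of 23282 lines, 22 that repeated a symbol with the same counts were left out. Genes were tested with edgeR 4.0.16 in R 4.3.3 (TMM, filterByExpr on condition, glmQLFit, glmQLFTest, Benjamini-Hochberg adjustment over 13610 genes), with condition as the only term. A gene was called at a fold over 1.5 and an unadjusted p under 0.05, thresholds named in the text of the study, and a fold of 2, which a legend of it names, was an alternative. The labels number replicates 1 to 3 in both groups. Deviations from the group means correlated between libraries of the same number at 0.185, 0.171 and 0.584. Control replicate 2 with AMD3100 replicate 1 gave 0.198, and control replicate 1 with AMD3100 replicate 2 gave 0.146. Only replicate 3 was thus matched by number, and the labels do not call equal numbers pairs. The number was used as a block in an alternative fit alone.

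The members and lists were chosen with earlier results of these data known. Given in every library were members called with or without the block, members with a fold over 1.5 whose groups did not overlap, the most abundant and the most different member of each class, Kdm5d and Prdm8. From each partner list, the called genes were named, or the 2 of lowest p. Other genes are marked as picked after their values were seen, or are given by ranges, counts or fold changes. Reads of 50 bases were simulated every 25 bases over the last 300 bases of each gene and aligned to NCBIM37 with minimap2 2.31-r1302. Gene positions, overlaps and promoter windows are from RefSeq on GRCm38. Counts were simulated for this comparison with the common dispersion of the 6 libraries for every gene and no split of replicate 3. The 200 genes changed 4-fold were drawn from the more abundant genes, so the result does not cover members near the floor. Of 13360 genes tested, edgeR called 171 of the 200, with 559 false calls, at a fold over 1.5 and an unadjusted p under 0.05. After adjustment it called 23, with 2 false calls. Alternatives were DESeq2 1.42.0, limma 3.58.1 with voom, other scalings, filters and dispersions, a version of the study's procedure (quantile normalization of log2(count + 1), an equal-variance test per gene; the pseudocount is a choice made here), and libraries left out.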

Additional observations from a re-analysis of the deposited data

How the results depend on the processing

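With the replicate block, the number of members called went from 1 to 0 and that of all genes from 228 to 598. It was also 0 members with at least 10 counts in every library, with no filter, with robust estimation and with replicates 1 and 2 only. A version of the study's procedure called 2 of 69 members, Prdm8 and Sirt4, beside 2.34% of 18307 genes. That version kept every gene with a count. Prdm8 had 0, 1 and 3 counts in control, and Sirt4 had 0, 0 and 5 counts in AMD3100, so these calls are a description. With at least 10 counts in every library Prdm8 was not tested. Its log2 fold change was 3.70 with no filter, 3.72 with robust estimation and 5.33 with replicates 1 and 2 only, so the call was lost without a smaller fold. All genes called numbered 613 with replicates 1 and 2 only and 429 by that version of the study's procedure. With 1 library left out, members called ran from 0 to 3 and all genes from 163 to 547. The 3 were Sirt3, Sirt4 and Hdac8, without AMD3100 replicate 3, when all genes were 451, and the 547 were without control replicate 3. Without AMD3100 replicate 3, Sirt4 was at 0 counts in both AMD3100 libraries left and Sirt3 at 31 and 1. Both could pass the filter only with the controls, so their calls are a description. No member passed an adjusted p of 0.05 in any alternative run, and the members' median log2 fold change ran from -0.06 to 0.02. For the single genes run under the alternatives, which leave out Sirt4, Dpy30 and Brms1, 30 values changed sign, 26 lost the call and 2 gained it (Sirt3 and Hdac8). Leaving out 1 library, the log2 fold change ran from -0.16 to 0.0014 in Ehmt2, from -0.14 to 0.41 in Hdac1, from -0.27 to 0.016 in Hdac2, from -0.80 to 0.23 in Hdac3, from -0.17 to 0.94 in Hdac4, from -0.25 to 0.11 in Hdac7, from -1.47 to 0.51 in Hdac8, from -0.74 to 0.16 in Kdm4b, from -0.17 to 0.34 in Kdm5b, from -0.64 to 0.31 in Kdm6a, from -0.094 to 0.32 in Nsd1, from -0.065 to 0.51 in Setd5 and from -0.61 to 0.13 in Sirt2. Kdm4b was at 0.011 with quantile normalization and limma-voom, and Prdm2 at -0.012 with replicates 1 and 2 only. The cause was not tested. At the depth of these libraries Prdm8 rests on 0 to 26 counts a library and Sirt5 on 4 to 30.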
